A study of Homo sapiens with 6 samples.

Results

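The genes described here are 10 genes of BMP and TGF-beta signalling, most of them regulators of transcription and SMURF1 and BAMBI regulators of receptors and SMADs, ID1, ID2, ID3, ID4, SMAD3, SMAD6, SMAD7, SMURF1, BAMBI and TGIF1, of the 22077 gene symbols in the count table. They were selected on measured values of the same comparison that is described here, so their differences between the groups are given as a description. No p-value is given for them, and the counts of members called in the fit over all genes support nothing. RNA was sequenced from 6 libraries of a human hepatocellular carcinoma line, 3 from cells overexpressing TKT (transketolase, an enzyme of the pentose phosphate pathway) and 3 from control cells. The controls are labelled as wild type, and their titles begin with VC. Per the study's methods, TKT was introduced on a plasmid that also carries GFP and puromycin resistance. Whether the control cells received a plasmid is not stated there. The study's results name the sequenced line as Huh7 and its methods name it as HCCLM3, while the labels carry a spelling close to Huh7. In its functional assays the study overexpressed TKT in Huh7 and silenced it in HCCLM3. The control libraries held 31618541, 30148788 and 33815829 counts and the TKT libraries 37096156, 31188058 and 32406994. The labels call the 3 libraries of a group replicate biosamples and do not say whether they came from separate cultures, so p-values measure only the spread between these libraries. TKT had counts of 15626, 14256 and 17275 in control and 348402, 294602 and 308875 in TKT libraries, a log2 difference of 4.26 (standard error 0.044). TKT was high in each library labelled with it (exact two-sided permutation test, p = 0.1, the lowest value that 3 against 3 can give).

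BMP and TGF-beta ligands bind pairs of receptor kinases at the cell surface, which phosphorylate receptor SMADs. BMP receptors act mainly on SMAD1, SMAD5 and SMAD9, TGF-beta and activin receptors mainly on SMAD2 and SMAD3, and both groups of SMADs enter the nucleus with SMAD4. The ID genes are well known direct targets of BMP signalling, and their proteins bind bHLH transcription factors without binding DNA themselves. SMAD6 and SMAD7 are inhibitory SMADs that the pathway itself induces, SMURF1 is a ubiquitin ligase that acts on receptors and SMADs, BAMBI is a decoy receptor without a kinase domain, and TGIF1 is a homeodomain corepressor that binds SMAD complexes. In hepatocytes, BMP signalling is best known for control of hepcidin, and TGF-beta for growth arrest. The deposited table assigns 101 genes to its TGF-beta signaling pathway, and all 10 of the genes described here are among them.

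The promoters of ID1, ID4, SMAD6 and BAMBI are shown, a choice made from their values. ID1, ID4 and SMAD6 were the members with lower values in every TKT library. BAMBI is a member with higher values and 1 start in RefSeq. Each line gives the 250 bases upstream of the start, 5′ to 3′ on the strand of the gene (RefSeq, GRCh38.p14). Capitals mark matches, on either strand, to a SMAD palindrome (GTCTAGAC), a SMAD box core (CAGAC), a GC-rich SMAD motif (GGCGCC) or a TATA box (TATAAA).
ID1: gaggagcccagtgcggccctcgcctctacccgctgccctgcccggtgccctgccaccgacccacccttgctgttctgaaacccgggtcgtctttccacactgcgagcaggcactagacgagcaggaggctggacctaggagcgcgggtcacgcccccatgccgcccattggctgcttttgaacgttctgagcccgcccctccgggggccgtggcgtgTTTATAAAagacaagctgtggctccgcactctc
ID4: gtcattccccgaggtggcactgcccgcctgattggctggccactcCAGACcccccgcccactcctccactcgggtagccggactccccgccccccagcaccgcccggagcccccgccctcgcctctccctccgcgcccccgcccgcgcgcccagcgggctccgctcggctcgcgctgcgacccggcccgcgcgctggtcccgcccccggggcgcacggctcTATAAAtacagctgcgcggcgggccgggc
SMAD6: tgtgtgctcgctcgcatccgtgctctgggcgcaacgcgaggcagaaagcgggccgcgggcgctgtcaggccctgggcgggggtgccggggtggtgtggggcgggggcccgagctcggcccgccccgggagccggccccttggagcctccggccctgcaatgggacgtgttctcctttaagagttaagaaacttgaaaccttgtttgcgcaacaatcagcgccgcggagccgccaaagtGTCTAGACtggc
BAMBI: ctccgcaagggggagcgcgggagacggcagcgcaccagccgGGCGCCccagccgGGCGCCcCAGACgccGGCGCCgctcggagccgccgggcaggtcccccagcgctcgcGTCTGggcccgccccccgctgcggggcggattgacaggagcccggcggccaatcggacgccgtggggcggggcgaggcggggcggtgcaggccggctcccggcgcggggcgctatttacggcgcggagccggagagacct
These windows lie at chr20:31605039-31605288, chr6:19837120-19837369, chr15:66701986-66702235 and chr10:28677271-28677520, all on the plus strand. The SMAD6 window held the palindrome 12 bases upstream of the start, a match found in 0.182% of 35116 windows of this length across all genes. BAMBI held the GC-rich motif at 3 places, 209, 196 and 181 bases upstream, against 16.4% of all windows with at least 1 match. The BAMBI window was 81.2% G or C, and the share over all windows takes no account of base composition. SMURF1, which also had higher values and 1 start, had a window of 81.2% G or C without the GC-rich motif. The SMAD box core, which 38.0% of windows hold, occurred 2 times in BAMBI and 1 time in ID4. ID1 and ID4 carried a TATA box within 33 bases of the start, and 10.7% of windows hold this motif at any place. In ID1 the capitals cover 2 overlapping matches, 1 on each strand, and no other matches overlapped in the 4 windows. All 10 members had a window, 22 in all, since SMAD3, SMAD7 and TGIF1 have several starts. SMAD3 was the other member with the GC-rich motif, and no other member had the palindrome. A match is a description of the letters and neither a bound site nor a cause.

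ID1 (GRCh38 chromosome 20, from 31605283 to 31606515, plus strand, GENCODE 29) was by far the most abundant member. Its level in FPKM (reads per length and depth, as deposited) averaged 784 ± 23.0 in control and 686 ± 11.0 in TKT libraries (SD, n = 3 each), and it ranked 34 among 14162 tested genes by control FPKM. ID1 counts scaled to a common library size (CPM, with TMM factors) were 983, 932 and 1003 in control and 846, 873 and 824 in TKT libraries. Each TKT library lay below each control library. The log2 fold change of ID1 was -0.20 with a standard error of 0.037, a ratio of 0.872.
ID4, on chromosome 6 from 19837386 to 19840684, had CPM of 13.3, 14.5 and 12.3 in control and 10.4, 9.76 and 10.1 in TKT libraries. All 3 TKT values were below the lowest control value, and the log2 fold change of -0.40 (standard error 0.11) was the lowest among the members. ID4 rests on counts of 301 to 441 per library, so its error is wider than that of ID1.
ID2, on chromosome 2 from 8678845 to 8684453, did not share this direction. Its CPM were 121, 121 and 122 in control and 122, 129 and 130 in TKT libraries. The groups overlapped, with a TKT library inside the control range, and the log2 fold change was 0.06 with a standard error of 0.045. An antisense gene, ID2-AS1, shares exon sequence with ID2, and because the strand option of the counting is not given in the sources used here, reads of the pair cannot be told apart. ID2-AS1 had counts of only 52 to 79 per library.

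ID3, on chromosome 1 from 23557918 to 23559794 on the minus strand, was listed with counts of 0, 2 and 0 in control and 0, 0 and 0 in TKT libraries and was the 1 member of 10 that did not pass the filter on low counts. No fold is given for it, because both groups are at or under 3 counts per library. The value cannot be taken as the level of ID3 RNA, since some genes that every cell uses are listed in the same way. RPS18, a protein of the small ribosomal subunit, had counts of 5, 1 and 2 in control and 1, 2 and 1 in TKT libraries. RPS25, PSMB3, PSMC4 and CCT8 also had at most 10 counts in every library, so that this held for 5 of 129 genes of the ribosome, the proteasome, RNA polymerase II and the CCT chaperonin that have a row. APOB, a major secreted protein of hepatocytes, was listed with 0 to 6 counts. These genes were chosen after their values were seen.

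SMAD3, the receptor SMAD among the members, lies on chromosome 15 from 67063763 to 67195195. SMAD3 had CPM of 74.2, 78.7 and 74.9 in control and 88.2, 86.0 and 92.4 in TKT libraries. Every TKT library was above every control library, with a log2 fold change of 0.23 and a standard error of 0.051. Exons of SMAD3 overlap a further annotated gene that was not analysed here, so reads in the overlap are uncertain.
TGIF1, on chromosome 18 from 3411608 to 3459978, had the largest positive value among the members. Its CPM were 107, 103 and 114 in control and 139, 140 and 141 in TKT libraries. The TKT libraries were close together and well above the controls, and the log2 fold change was 0.37 with a standard error of 0.046, a ratio of 1.30.

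The inhibitors were not all on the same side. SMAD6, on chromosome 15 from 66702228 to 66782848, had CPM of 52.5, 51.7 and 51.6 in control and 44.8, 39.5 and 44.2 in TKT libraries. Like ID1 and ID4, it was lower in each TKT library, with a log2 fold change of -0.28 and a standard error of 0.059.
SMAD7, on chromosome 18 from 48919853 to 48952052 on the minus strand, had CPM of 24.9, 29.5 and 29.2 in control and 30.1, 29.6 and 32.0 in TKT libraries. The lowest TKT value lay just above the highest control value in CPM, while in FPKM the groups overlapped. The log2 fold change of SMAD7 was 0.13 with a standard error of 0.077, and the first control library was low beside the other two. Without that library the log2 fold change of SMAD7 was 0.06.
SMURF1, on chromosome 7 from 99027438 to 99144100 on the minus strand, had CPM of 44.3, 46.5 and 43.4 in control and 52.9, 48.9 and 50.7 in TKT libraries. All TKT values were above the controls, with a log2 fold change of 0.18 and a standard error of 0.056. Exons of SMURF1 overlap those of TRRAP on the other strand, whose reads cannot be told apart from SMURF1 in the overlap. TRRAP itself had a log2 fold change of -0.06 with a standard error of 0.049.
BAMBI, on chromosome 10 from 28677342 to 28682939, had CPM of 143, 147 and 144 in control and 174, 160 and 156 in TKT libraries. The TKT libraries were all higher, the first of them most, and the log2 fold change was 0.17 with a standard error of 0.046.

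**Figure D1:**
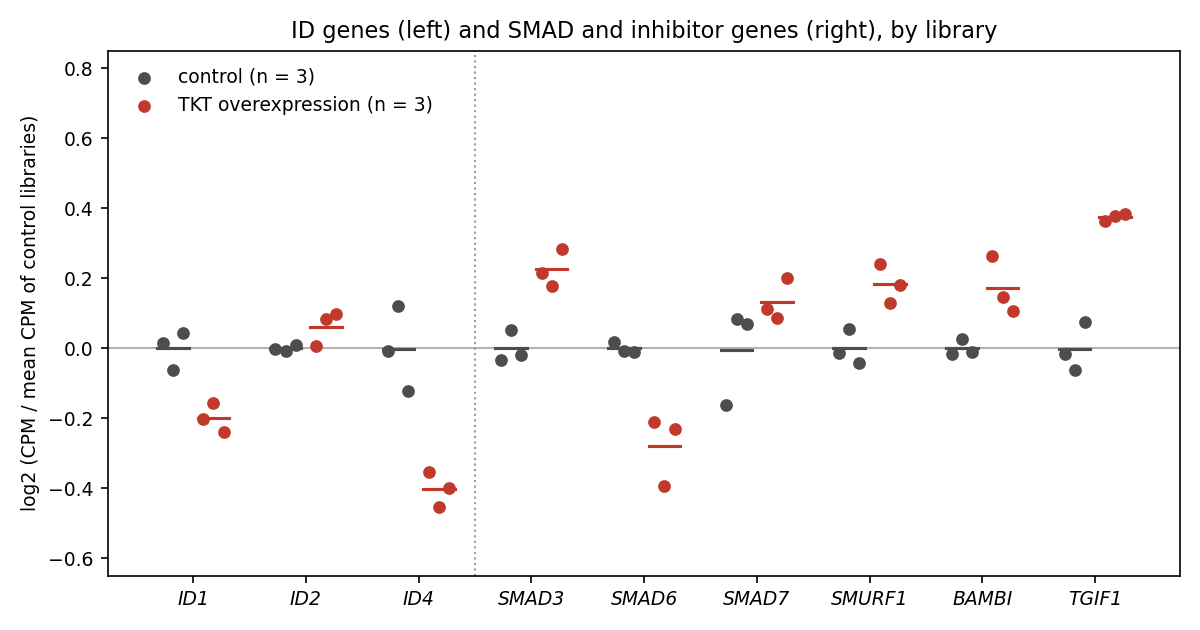
The plot gives, for the 9 members that passed the filter, the log2 ratio of each library's CPM to the mean CPM of the control libraries (y axis); points are libraries (3 a group) and short lines are group means. ID1, ID4 and SMAD6 lie below the controls in all 3 TKT libraries, while SMAD3, SMURF1, BAMBI and TGIF1 lie above them and SMAD7 does so by a small margin.

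Set side by side, the 3 ID genes that passed the filter showed a median difference of -0.20 in log2, and the 6 SMAD and inhibitor genes 0.18, against 0.001 over all 14162 tested genes. The split by class had exceptions on both sides, ID2 with a value slightly above 0 and SMAD6 with a value below 0. At an adjusted p under 0.05 in edgeR's quasi-likelihood test over all genes, 4 members were higher (SMAD3, SMURF1, BAMBI and TGIF1) and 3 lower (ID1, ID4 and SMAD6). Of all tested genes, 5.69% were called higher and 4.94% lower, and because this comparison chose the members, nothing is read from the counts. With single libraries left out, ID4 lost its call without the first control, the second control or any 1 of the TKT libraries, SMURF1 without the first control, the third control, the first TKT or the third TKT library, and BAMBI without the first control, the third control or the first TKT library. With DESeq2 SMURF1 was not called, and with limma on log2(FPKM + 1) the members called were ID1, ID4 and TGIF1. The study's thresholds also ask for an absolute log2 fold change over 1, which no member reached and which 0.727% of all tested genes did together with an adjusted p under 0.05. In CPM, 5 members had all TKT libraries above all control libraries and 3 had them below, where 14.1% and 13.9% of all tested genes did so. In bulk RNA, fewer cells with a transcript and less of it per cell cannot be told apart.

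Ratios of counts within a library do not depend on how libraries are scaled, and a pair was taken from each class after the values were seen. The ratio of ID2 to ID1 counts was 0.123, 0.130 and 0.122 in control and 0.144, 0.147 and 0.157 in TKT libraries. That of SMAD7 to SMAD6, both of them inhibitory SMADs, was 0.473, 0.570 and 0.566 in control and 0.670, 0.748 and 0.723 in TKT libraries. Both ratios were higher in each TKT library, with means 1.20 and 1.33 times those of the controls.

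By level per length, the order in control libraries was ID1, BAMBI, ID2, TGIF1, SMAD3, SMURF1, SMAD7, SMAD6 and ID4. Mean FPKM fell from 784 for ID1 to 67.2 for BAMBI, 54.5 for ID2 and 13.2 for TGIF1, and each of these was above the next in every control library. SMAD3 at 7.55 ± 0.305, SMURF1 at 7.09 ± 0.313 and SMAD7 at 7.02 ± 0.680 FPKM (SD, n = 3 each) had ranges over the control libraries that overlapped. Within each control library, SMAD3 was above SMURF1 and SMAD7. SMAD6 followed at 6.03 and ID4 at 3.43 FPKM. The TKT libraries gave the same order, with SMURF1 and SMAD7 again overlapping and SMAD3 above both. The inhibitory SMADs drew apart in level, with 7.38 to 8.20 FPKM for SMAD7 and 4.55 to 5.23 for SMAD6 in TKT libraries.

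**Figure D2:**
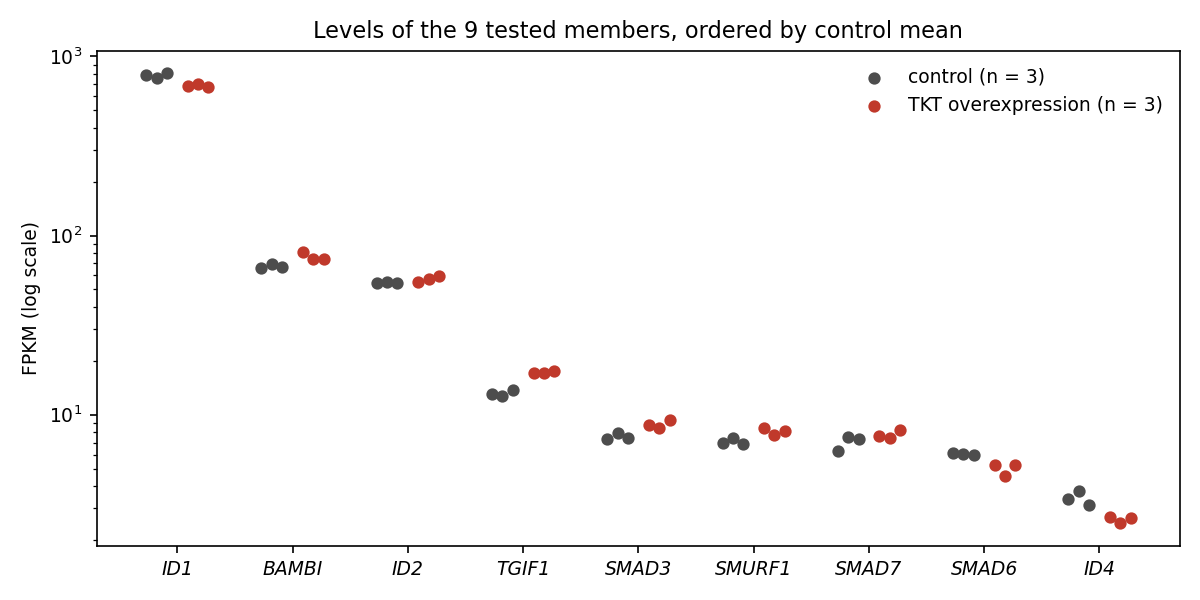
The plot shows FPKM on a log axis for the 9 members that passed the filter, ordered by control mean, with 1 point per library and 3 libraries a group. ID1 stands far above BAMBI, the next member, at 784 against 67.2 FPKM in control, and the order of the genes is the same in both groups.

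The rest of the pathway was taken from lists of ligands, receptors, SMADs, regulators, antagonists, targets and bHLH partners. Of 116 further genes with a row, 95 were tested, 24 were called higher and 3 called lower (adjusted p under 0.05), where 5.69% and 4.94% of all tested genes were. Their median log2 fold change was 0.13 against 0.001 over all tested genes, and that of the TGF-beta signaling pathway in the deposited table, members left out and chosen after seeing the data, was 0.06 over 80 tested genes. Without the first TKT library 15 were higher and 1 lower, and without the second TKT library 1 was lower. Genes of the lists without a row, such as BMP7, GREM1 and PMEPA1, were not analysed here. Of the genes called, 25 reached an average log2 CPM of 1, and those with the largest absolute log2 fold changes are given by role.

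Among ligands, 7 of 18 tested genes were higher and 1, GDF11, was lower. BMP2, a ligand that acts on ID genes through SMAD1 and SMAD5, had CPM of 39.0, 39.6 and 38.9 in control and 60.6, 60.7 and 57.1 in TKT libraries. The TKT libraries lay well apart from the controls, and BMP2 rose by 0.60 in log2 (standard error 0.054), with an adjusted p of 9.60e-08 in edgeR's quasi-likelihood test. GDF15, a stress-induced distant member of the family and the ligand with the highest mean FPKM, rose from 45.5 FPKM in control with a log2 fold change of 0.96 (standard error 0.049). TGFB2 and AMH rose with log2 fold changes of 0.61 (standard error 0.099) and 0.70 (standard error 0.13), and AMH was no longer called without the second control, the third control or the first TKT library. INHBE, BMP4 and GDF11 had log2 fold changes of 0.30, 0.27 and -0.29. The call of BMP4 was lost without the second control, the first TKT or the second TKT library and in limma on log2(FPKM + 1), and that of GDF11 without the third control or any 1 of the TKT libraries and in limma on FPKM. INHBA was called at a level under 2 CPM in every library, and its call was lost in fits without the second control, the third control, the first TKT or the third TKT library, and in limma on FPKM.

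Of 15 tested receptors and coreceptors, 1 was called higher and 1 lower, with a list median of -0.01 in log2. Among them, ACVR1, a type I BMP receptor, was higher and TGFBR3, a coreceptor also called betaglycan, was lower, with log2 fold changes of 0.27 (standard error 0.080) and -0.19 (standard error 0.056). Neither call was kept without the first control, the second control, the first TKT or the second TKT library or in limma on FPKM, and that of ACVR1 was also lost without the third TKT library. Groups that did not overlap in CPM were also seen in ACVR2A, on the higher side, and in ENG and HJV, on the lower side, none of them called. With ACVR1 and TGFBR3, 2 of the 15 were higher and 3 lower without overlap, where 14.1% and 13.9% of all tested genes were. ENG, or endoglin, rests on counts of 22, 11 and 14 in control and 5, 1 and 8 in TKT libraries. TGFBR2, the receptor with the highest mean FPKM, had a log2 fold change of 0.05 and was not called. Of SMAD1, SMAD2, SMAD4, SMAD5 and SMAD9, 0 were called by edgeR, 0 by DESeq2 or limma, and 0 had an unadjusted p under 0.05 in edgeR. Their log2 fold changes were -0.03, 0.05, 0.01, 0.10 and 0.04, and the groups overlapped in each. SMAD5 had the highest mean FPKM of these, 6.29 in control. Of 20 tested SMAD regulators 4 were higher, and CDK8, a Mediator kinase that phosphorylates SMADs in the nucleus, had the largest value, 0.39 (standard error 0.12). The call of CDK8 was lost without the first control, the third control, the second TKT or the third TKT library, and in limma on FPKM, and its log2 fold change was 0.25 without the third TKT library. In limma on FPKM, the calls of all 4 regulators were lost. STRAP, the regulator with the highest mean FPKM, had a log2 fold change of 0.02.

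Secreted antagonists and regulators of the ligands included 4 higher genes of 14 tested. FST, or follistatin, which binds activins and some BMPs, had CPM of 7.22, 6.75 and 7.21 in control and 10.7, 12.6 and 11.2 in TKT libraries. It rose in each TKT library over each control, by 0.70 in log2 (standard error 0.12), with an adjusted p of 4.81e-04 in edgeR. The related FSTL3 rose by a log2 fold change of 0.42 (standard error 0.076). THBS1, a matrix protein that can activate latent TGF-beta and has the highest mean FPKM of this list, rose with a log2 fold change of 0.69 (standard error 0.040).

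Of 9 tested BMP-SMAD targets outside the members, 2 were called higher. HES1, a bHLH repressor also known as a Notch target, was higher by 0.38 in log2 (standard error 0.083). DLX2, a homeobox gene, was higher at a low level, with CPM of 0.732, 0.658 and 0.387 in control and 3.29, 1.98 and 2.34 in TKT libraries. The call of HES1, the gene with the highest mean FPKM of this list, was lost without the first TKT library. HAMP, the gene of hepcidin, was listed at 0 in all but 1 library. Of 15 tested TGF-beta-SMAD targets, 6 were higher and 1 was lower. KLF10, an early TGF-beta response gene, had CPM of 30.3, 31.1 and 28.7 in control and 50.1, 49.3 and 49.3 in TKT libraries. Its groups lay well apart, and it rose by 0.72 in log2 (standard error 0.058), with an adjusted p of 1.32e-08 in edgeR. The cyclin-dependent kinase inhibitors differed in direction, CDKN2B at 0.40 in log2 (standard error 0.082) and CDKN1A at -0.54 (standard error 0.11). FN1, fibronectin, had the highest mean FPKM of the list and a log2 fold change of 0.13 (standard error 0.041), a call that was lost with library totals in place of TMM and without the first control, the third control, the first TKT or the third TKT library, and in limma on FPKM, with a value of 0.09 without the third control. The bHLH partners of the ID proteins, TCF3, TCF4 and TCF12, were not called by edgeR, DESeq2 or limma and 0 had an unadjusted p under 0.05 in edgeR, with log2 fold changes of -0.07, -0.10 and 0.11, and TCF3 had the highest mean FPKM of the 3. TCF3 was lower in each TKT library than in each control, at 278, 263 and 264 CPM in control and 254, 257 and 254 in TKT libraries, while the groups of TCF4 and TCF12 overlapped.

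**Figure D3:**
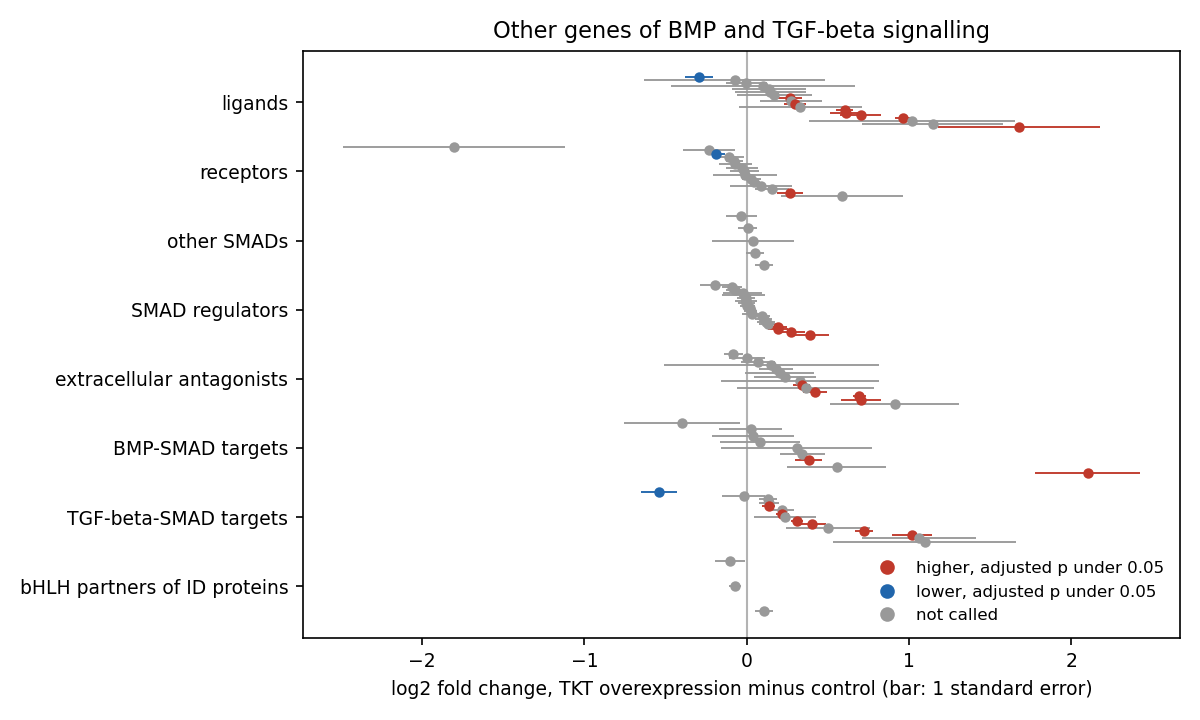
The plot shows the log2 fold change (x axis, TKT overexpression minus control) of each tested gene of the pathway lists, with a bar of 1 standard error from edgeR and 1 row per list; red and blue mark genes called higher and lower at an adjusted p under 0.05. Ligands, antagonists and targets hold most of the red points, and the 5 other SMADs lie close to 0.

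By Pearson correlation of log2 CPM over the 6 libraries, the genes most like ID1 among 11285 others were HNRNPAB, NDRG2 and KLHL21, with r of 1.00, 0.998 and 0.997. Those most like SMAD7 were ZNF302, C5orf34 and SHTN1, with r of 0.995, 0.990 and 0.986. These are the highest of many correlations over few libraries that share the same group difference, and are given as a description.

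Markers of hepatocytes were abundant. Of 12 hepatocyte markers 11 had over 10 counts in every library, AFP was the most abundant in CPM, and their summed CPM was 21977, 21921 and 22381 in control and 22516, 22927 and 22593 in TKT libraries. In that list FGB was higher and APOA2 and HNF4A were lower. Of mesenchymal markers, 2 of 6 with a row had over 10 counts in every library, COL1A2 and LUM had at most 3, and PDGFRA was the most abundant. The mesenchymal sum was 11.0, 9.71 and 9.45 CPM in control and 10.2, 10.2 and 9.97 in TKT libraries. Of endothelial markers 1 of 3 had over 10 counts in every library, PECAM1, with VWF at most at 3, and the sum was 19.1, 17.2 and 20.6 CPM in control and 19.4, 15.4 and 16.3 in TKT libraries. Of immune markers 2 of 6 passed this level, with CD3E and CD68 at most at 3 counts, and LYZ, the most abundant, was lower in TKT libraries. The immune sum, mostly LYZ, was 154, 162 and 164 CPM in control and 127, 123 and 129 in TKT libraries, and its part in the members' values was not tested.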

How the data were processed

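The authors trimmed the reads with fastp 0.22.0 and aligned them with HISAT2 2.1.0, per the labels to hg38, and counted them with featureCounts. The deposited counts are whole numbers for each symbol, not normalized. The deposited FPKM are counts scaled by gene length and depth. The annotation, strand and multi-mapping options are not given in the sources used here. The table's columns were matched to libraries by group and number.

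From the counts, R 4.3.3 and edgeR 4.0.16 (filterByExpr by group, minimum count 10, TMM, robust quasi-likelihood test, no block) gave 14162 tested genes, with Benjamini-Hochberg adjustment over all of them. The precision of a value comes from the spread between 3 libraries a group, with a common biological coefficient of variation of 0.113. Alternatives were DESeq2 1.42.0, other scalings, no filter, the replicate block, each library left out, limma 3.58.1 on log2(FPKM + 1) and log2(FPKM + 0.1), the study's thresholds, and, chosen after seeing the data, the pathway of the deposited table. The test was tested on simulated counts, where it missed part of the changed genes with a mean count under 100. A first acceptance limit was narrowly missed and was replaced after that was seen. Genes with low counts that were not called may therefore have changed. A gene with high counts that was not called may also have changed by a small amount. Members and lists were chosen with earlier results of these data known. The genes named are the members, SMAD1, SMAD2, SMAD4, SMAD5, SMAD9 and TKT, the 12 called pathway genes (mean log2 CPM of at least 1) with the largest absolute log2 fold change, the gene with the highest mean FPKM of each list, and the 3 genes most correlated with ID1 and with SMAD7. Of the 12, 1 is not reported here. Others were named after their values were seen.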

Additional observations from a re-analysis of the deposited data

How the results depend on the processing

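The 9 tested members kept the sign of their log2 fold change under all 14 alternatives with a value for each. ID4 was -0.30 with limma on log2(FPKM + 1), where a pseudocount shrinks low genes. The median of the ID genes lay between -0.23 and -0.18 and that of the SMAD and inhibitor genes between 0.15 and 0.20. TKT stayed between 4.22 and 4.29.

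Against 806 genes called higher and 699 lower, limma gave 496 and 331 on log2(FPKM + 1) and 494 and 332 on log2(FPKM + 0.1), and the study's thresholds gave 99 and 4. With 1 library left out, 457 to 820 genes were higher and 334 to 766 lower, where fewer samples enter the fit: 521 and 360 without control replicate 1, 457 and 334 without TKT replicate 1, and 447 lower without TKT replicate 3. Of the pathway lists, 15 to 22 genes were then higher and 1 to 2 lower, both limma fits gave 1 lower, and the study's thresholds gave 3 higher and 0 lower. The pathway of the deposited table, members left out and chosen after seeing the data, gave 15 higher and 5 lower of 80 tested.

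The replicate block gave 431 genes higher and 266 lower, and 1 pathway gene lower. ID4, SMURF1 and BAMBI among the members and BMP4, GDF11, INHBA, ACVR1, TGFBR3, CDK8 and FN1 among the named pathway genes were not called with it. Deviations of libraries with the same number had correlations of -0.00192, -0.0252 and 0.0156, so no shared shift by number was seen over all genes. Whether libraries with the same number were prepared together cannot be told from these correlations.

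SMAD1, SMAD4 and SMAD9, none of them called, changed sign in fits without 1 library, between -0.07 and 0.03 for SMAD1, -0.04 and 0.05 for SMAD4 and -0.09 and 0.22 for SMAD9. The cause of these shifts was not tested. ID3, with at most 2 counts in a library, allows no fold.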
